A study of Mus musculus with 3 samples.

Results

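The genes described here are the 3 ephrin-B ligands (*Efnb1*, *Efnb2* and *Efnb3*), 5 EphB receptors (*Ephb1*, *Ephb2*, *Ephb3*, *Ephb4* and *Ephb6*) and the ephrin-A1 and EphA2 pair (*Efna1* and *Epha2*). They were chosen by gene symbol, as members of a ligand and receptor family, and *Efna1* and *Epha2* were taken as the endothelial pair of the A class with earlier results of these data known. All 10 have a row among the 24346 genes of the deposited table. The study profiled vascular endothelial cells (ECs) of several mouse organs and stages by bulk RNA-seq, and the samples analysed here are adult lung ECs in 3 libraries (S38, S44 and S52). The cells came from male wild type C57BL/6J mice aged 6 to 8 weeks, with no treatment other than an antibody to VE-cadherin given intravenously before the organs were taken. They were sorted as CD31 and VE-cadherin positive cells that lacked CD45 and podoplanin, a gate meant to leave out leukocytes and lymphatic ECs, and they were not cultured. All 3 libraries are of 1 condition, so the values are levels and no comparison between conditions was possible. Where 3 values follow each other, they are those of S38, S44 and S52 in this order. The labels do not say whether a library is 1 mouse or a pool.

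Ephrins and Eph receptors signal between touching cells. Ephrin-A ligands are held to the membrane by a lipid anchor, whereas ephrin-B ligands cross it and carry a cytoplasmic tail, so that signals pass both into the cell with the receptor and into the cell with the ligand. In blood vessels ephrin-B2 is best known as a ligand of arterial ECs and EphB4 as its receptor on venous ECs, and the pair keeps the arterial and venous beds apart during development. Ephrin-A1 is a ligand of EphA2, and both are found on ECs, where they have been studied in angiogenesis and in barrier function.

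The members fell into a high and a low group with a wide gap between them. *Efnb2*, *Efna1*, *Efnb1*, *Epha2* and *Ephb4* had means from 58.3 to 145 FPKM (fragments scaled to gene length and to library size, a unit that allows levels of different genes to be set side by side). *Ephb3*, *Ephb6*, *Ephb1*, *Efnb3* and *Ephb2* had means from 0.020 to 0.885 FPKM. A mean of at least 1 FPKM, called detected here, was reached by 5 of the 10 members, against 48.3% of all genes, so the share detected is near that of the table as a whole. The same 5 members were above 10 FPKM and above 50 FPKM, which 25.7% and 7.17% of all genes reached.

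**Figure D1:**
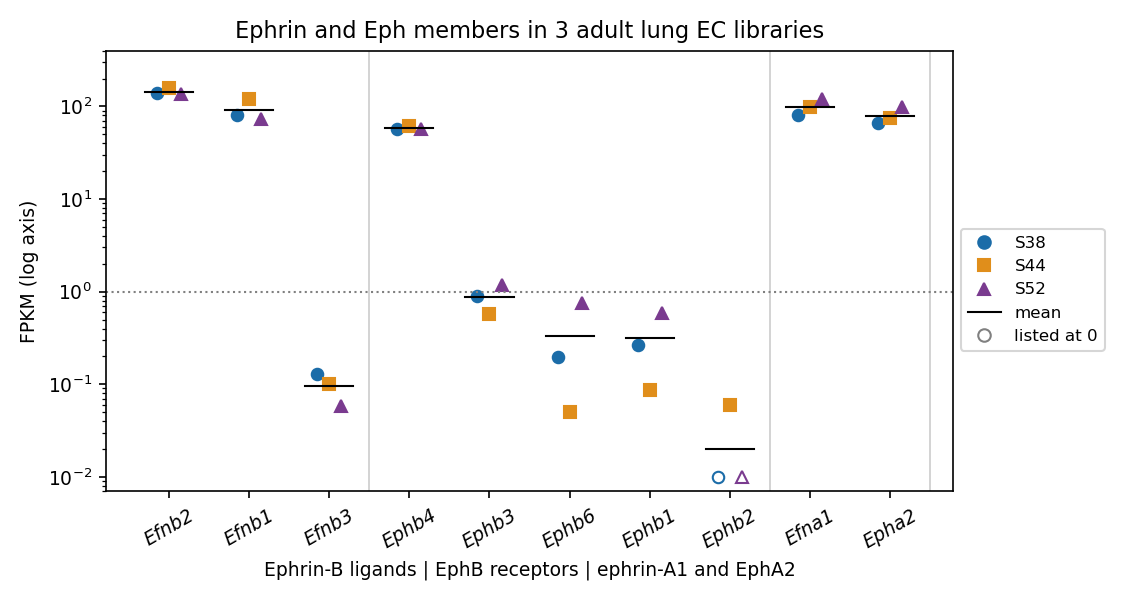
Level of each of the 10 members in FPKM (log axis) in libraries S38, S44 and S52, with the mean as a black line and the detection threshold of 1 FPKM as a dotted line. Open symbols are values listed at 0, drawn at the bottom of the axis. *Efnb1*, *Efnb2*, *Ephb4*, *Efna1* and *Epha2* sit between 56.6 and 158 FPKM in every library, and the other members at or below 1.19 FPKM.

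The libraries were of similar estimated depth and stood apart in the content of non-endothelial RNA. Steps in the low FPKM values gave estimated depths of 37900000, 39050000 and 34200000 fragments. The median of 10 endothelial genes was 378, 393 and 379 FPKM, and that of 5 lung capillary genes was 661, 663 and 582 FPKM. Median levels of alveolar type 2 genes (182, 121 and 33.7 FPKM), airway genes (43.96, 40.9 and 9.29 FPKM), pan-epithelial genes (13.5, 7.57 and 4.63 FPKM), platelet genes (244, 216 and 9.11 FPKM) and leukocyte genes (8.70, 7.32 and 0.434 FPKM) were all lowest in S52. Single genes of these lists stood far above the medians. *Sftpc* was at 3333, 2862 and 658 FPKM and *Scgb1a1* at 2669, 2212.5 and 378 FPKM. *Ppbp* was at 1054, 778 and 16.0 FPKM and *Lyz2* at 1047, 780 and 166 FPKM. Mural genes had medians of 5.75, 3.31 and 9.11 FPKM, alveolar type 1 genes 26.9, 20.5 and 34.6 FPKM, fibroblast genes 8.30, 7.59 and 6.83 FPKM, and mesothelial genes 0.560, 1.71 and 0 FPKM. Of the 4 lymphatic genes, *Lyve1* and *Flt4* had means of 509 and 22.4 FPKM, and *Pdpn* and *Prox1* means of 2.44 and 0.301 FPKM. In such bulk samples, fewer cells of a type and less RNA per cell cannot be told apart.

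Among the ephrin-B ligands, which signal in both directions, *Efnb2* was the highest in every library. *Efnb2* lies on the minus strand of chromosome 8 of GRCm38, from 8617434 to 8661242, and its annotated transcript has 5 exons. Its levels were 141, 158 and 136 FPKM, with a mean of 145 ± 12.0 FPKM (SD, n = 3 libraries). This mean ranks 624 among all genes, above 97.4% of them. Its values stand on an estimated 24793, 28656 and 21473 fragments, so that counting error is small beside the spread between libraries.

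*Efnb1*, which encodes the closely related ligand ephrin-B1, lies on chromosome X, plus strand, between 99136130 and 99148991. Its levels were 80.99, 119 and 73.9 FPKM, with a mean of 91.3 ± 24.2 FPKM (SD, n = 3), and it ranks 963. The value in S44 stood above both others, and its counting interval (95% exact Poisson), 117 to 121 FPKM, did not touch theirs. With each library rescaled to a sum of 1000000 the *Efnb1* levels were 70.2, 74.2 and 52.1 FPKM, so that S44 was still the highest but near S38. *Efnb2* exceeded *Efnb1* in each library, by ratios of 1.74, 1.33 and 1.83.

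*Efnb3*, known mainly as an axon guidance ligand of the nervous system, was close to the limit of detection. It lies on the minus strand of chromosome 11 from 69554092 to 69560205. Its values of 0.129, 0.1004 and 0.0577 FPKM correspond to an estimated 15, 12 and 6 fragments. The 95% Poisson intervals, 0.0730 to 0.215, 0.0525 to 0.178 and 0.0213 to 0.126 FPKM, overlap one another, so they do not set the libraries apart at this depth. Its order, lowest in S52 and highest in S38, was that of 26.1% of the 2268 genes below a mean of 1 FPKM and above 0 in each library. *Efnb3* made up 0.0406% ± 0.0158 (SD, n = 3) of the summed ephrin-B FPKM, *Efnb1* 38.2% ± 4.09 and *Efnb2* 61.7% ± 4.09.

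Of the EphB receptors, the receptor tyrosine kinases that bind ephrin-B ligands, only *Ephb4* was detected. *Ephb4* lies on chromosome 5, plus strand, between 137350109 and 137378669 and has 4 basic transcripts in GENCODE M21. Its levels were 56.6, 61.4 and 57.0 FPKM, with a mean of 58.3 ± 2.70 FPKM (SD, n = 3), and it ranks 1487, above 93.9% of genes. Its coefficient of variation over the libraries, 4.63%, was the smallest of the members in the values as deposited. With each library rescaled to a sum of 1000000 its level was 42.5 ± 5.73 FPKM (SD, n = 3), and its ratio of highest to lowest library was 1.28, the same as that of *Efnb2* to this precision. *Ephb4* made up 97.7%, 98.8% and 95.7% of the summed EphB FPKM. Its 3′ end overlaps *Zan* on the opposite strand, and the library kit keeps no strand, but *Zan* was listed at 0.0581, 0.0485 and 0.306 FPKM.

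*Ephb3*, best known from epithelial and neural patterning, was the next receptor, at levels of 0.891, 0.577 and 1.19 FPKM. It lies on chromosome 16, plus strand, between 21204755 and 21223305. Its mean of 0.885 ± 0.305 FPKM (SD, n = 3) lies within its own SD of the threshold, and it passed 1 FPKM in S52.

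*Ephb6* encodes a receptor that lacks kinase activity and acts through other Eph receptors. It lies on chromosome 6, plus strand, between 41605482 and 41620509. Its levels were 0.197, 0.0497 and 0.759 FPKM, from an estimated 27, 7 and 94 fragments. The 95% Poisson intervals are 0.130 to 0.287, 0.020 to 0.103 and 0.617 to 0.934 FPKM and do not overlap, so its libraries differed by more than counting error. Its ratio between libraries, 15.3, is the largest among the 9 members above 0 in every library.

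*Ephb1*, a receptor of axon pathfinding on the minus strand of chromosome 9 from 101922128 to 102354693, had levels of 0.263, 0.0874 and 0.586 FPKM. With its longest transcript of 4667 bp these are an estimated 45, 15 and 90 fragments. The 3′ end of *Ephb1* overlaps the protein-coding gene *9630041A04Rik* on the opposite strand, which has no row in the deposited table. What reads from that gene add to the *Ephb1* values was not tested. *Ephb2*, on the minus strand of chromosome 4 from 136647539 to 136835988, encodes a receptor of neurons and intestinal crypts. It was listed at 0 in S38 and S52 and at 0.0599 FPKM in S44. For its shortest transcript a count of 0 allows up to 0.0226 FPKM in S38 and 0.0251 FPKM in S52 (3 fragments, counting error only), and the 95% Poisson upper bounds are 0.0278 and 0.0309 FPKM. The S44 value corresponds to 8 fragments of the shortest transcript, with an interval of 0.0253 to 0.116 FPKM that overlaps those bounds. With the longest transcript it corresponds to 25 fragments and 0.0386 to 0.0880 FPKM, above the bounds of 0.00905 and 0.01004 FPKM in S38 and S52. The *Ephb2* intervals are therefore apart with the longest transcript and overlap with the shortest. Overlap of separate intervals does not show that libraries were alike, and the difference was not tested.

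*Ephb3*, *Ephb6* and *Ephb1* had the same order of libraries, lowest in S44 and highest in S52. Of the 2268 low genes counted for *Efnb3* above, 17.6% had this order. Of the 5 mural genes, *Pdgfrb* (6.47, 4.80 and 10.1 FPKM), *Rgs5* (5.75, 3.31 and 9.11 FPKM), *Notch3* (4.99, 1.80 and 7.23 FPKM) and *Cspg4* (0.900, 0.670 and 1.81 FPKM) had it too, whereas *Acta2* (90.3, 46.7 and 79.7 FPKM) was highest in S38. The summed mural level ranged from 57.3 to 108 FPKM over the libraries, and none of its genes was listed at 0. The alveolar type 1 genes *Ager* and *Rtkn2* also followed this order, and *Hopx* and *Aqp5* did not. The summed alveolar type 1 level was 348, 373 and 273 FPKM, lowest in S52. By list, 4 of 5 mural, 2 of 4 alveolar type 1 and 2 of 5 venous genes (*Nr2f2* and *Ackr1*) had the order. It was also that of 1 of 4 lymphatic, 1 of 4 fibroblast and 3 of 12 adaptor and kinase genes. So did 2 of 10 endothelial genes, *Flt1* and *Erg*, and 3 of 7 arterial genes, *Hey1*, *Sox17* and *Dll4*, as well as the receptor gene *Epha4*, against 17.8% of all detected genes. The part of any cell type in the low EphB values was not tested.

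**Figure D2:**
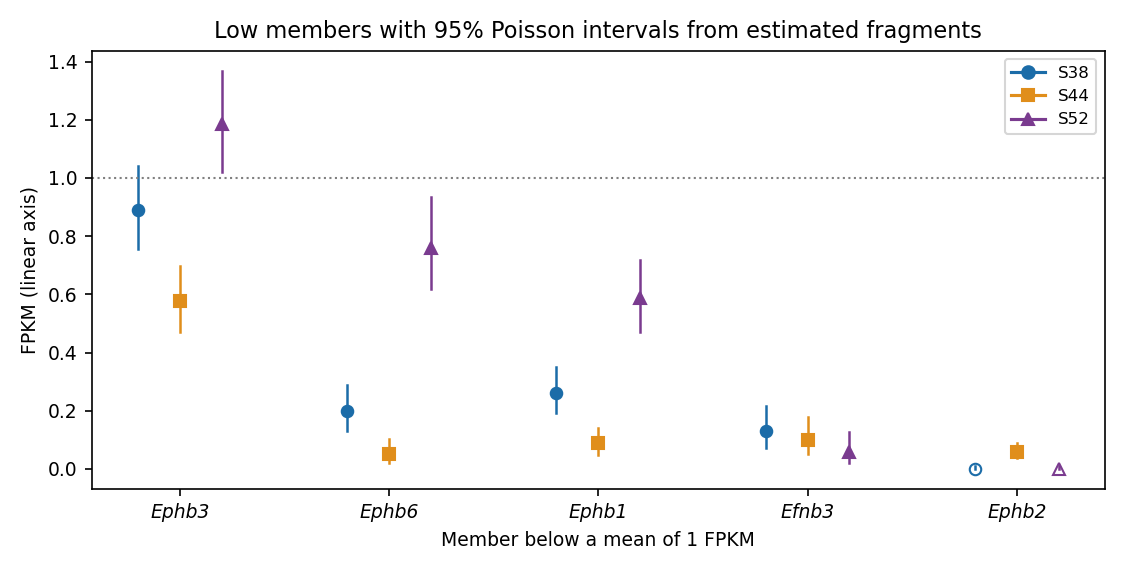
FPKM (linear axis) of the 5 members below a mean of 1 FPKM in each library. Bars are 95% exact Poisson intervals from the estimated fragments of the longest basic transcript and cover counting error only, and open symbols are values listed at 0. The bars of S44 and S52 are apart for *Ephb3*, *Ephb6* and *Ephb1* and overlap for *Efnb3*, and for *Ephb2* the bar of S44 lies above those of the libraries listed at 0.

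Ephrin-A1 and its receptor EphA2 were both expressed at a level between those of *Efnb2* and *Ephb4*. *Efna1* lies on the minus strand of chromosome 3 from 89271733 to 89281142. Its levels were 80.1, 97.9 and 119 FPKM, with a mean of 99.1 ± 19.6 FPKM (SD, n = 3), and it ranks 895. *Epha2* lies on chromosome 4, plus strand, between 141301240 and 141329384. Its levels were 66.0, 75.2 and 97.6 FPKM, with a mean of 79.6 ± 16.3 FPKM (SD, n = 3), and it ranks 1090. Both were highest in S52, 1.49-fold and 1.48-fold above S38.

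The shared order of *Efna1* and *Epha2*, with S38 lowest and S52 highest, was found in 16.0% of the 11770 detected genes. With each library rescaled to a sum of 1000000, S52 remained the highest for both genes and S44 in place of S38 was the lowest. The log2 ratios of S52 to S38, 0.574 for *Efna1* and 0.565 for *Epha2* as deposited, then fell to 0.275 and 0.266. They were 0.680 and 0.671 with libraries scaled by the median ratio over genes above 0 in every library. With endothelial genes set to the same mean they were 0.483 and 0.474. Endothelial and arterial genes were uneven in S52 as well. *Emcn* was at 156, 181 and 267 FPKM and *Gja4* at 58.1, 88.7 and 112 FPKM, whereas *Kdr* was at 380, 360 and 237 FPKM. Platelet, airway, pan-epithelial and alveolar type 2 genes were lowest in S52, as given above. The alveolar type 1 genes were split, with *Ager* and *Rtkn2* highest in S52 and *Hopx* and *Aqp5* lowest there. Their median was highest in S52 (34.6 FPKM), whereas their sum was lowest there (273 FPKM). The part of these cell types in the *Efna1* and *Epha2* values was not tested.

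In the order of means, *Efnb2* stood first and *Efna1*, *Efnb1*, *Epha2* and *Ephb4* followed. Neighbours were called separated where all 3 libraries gave the same order and the mean difference in log2(FPKM + 1) exceeded its SD. On that scale *Efnb2* was above *Efna1* by 0.56 ± 0.33 (SD, n = 3), *Epha2* above *Ephb4* by 0.42 ± 0.30, and *Ephb4* above *Ephb3* by 4.99 ± 0.29, and these pairs were separated. *Efna1* and *Efnb1* differed by 0.13 ± 0.50 and *Efnb1* and *Epha2* by 0.18 ± 0.53 (SD, n = 3), with the order turning between libraries, so these neighbours did not differ beyond their spread. In the low group *Ephb3* was separated from *Ephb6* and *Efnb3* from *Ephb2*, while *Ephb6* and *Ephb1*, and *Ephb1* and *Efnb3*, were not. In all, 5 of 9 neighbouring pairs were separated. With 3 libraries an exact two-sided sign-flip permutation test cannot give a p below 0.25, which each separated pair reached, so none of these orders can pass a threshold of 0.05.

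Ratios of a ligand to its receptor within a library differed in how steady they were. *Efnb2* to *Ephb4* was 2.49, 2.58 and 2.38. *Efna1* to *Epha2* was 1.21, 1.30 and 1.22. On the log2 scale their SDs over the libraries were 0.058 and 0.055, against 0.30 for *Efnb1* to *Ephb4*, which is also a ligand and receptor pair. The ratio of the 2 receptors *Epha2* and *Ephb4* had an SD of 0.30. How often other pairs of genes are as steady was not tested.

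**Figure D3:**
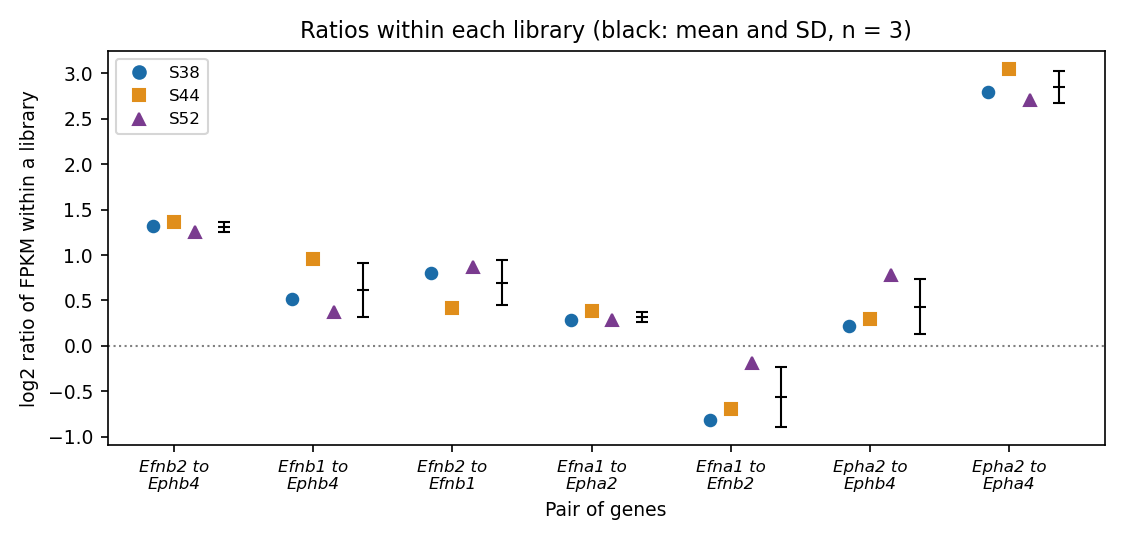
Log2 ratio of the FPKM of 2 genes within each library, for 7 pairs, with mean and SD in black. The ratios of *Efnb2* to *Ephb4* and of *Efna1* to *Epha2* lie close together in the 3 libraries, and those of *Efna1* to *Efnb2* and *Epha2* to *Ephb4* are highest in S52.

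None of the 5 detected members differed by more than 2-fold between its highest and lowest library, which 20.1% of all detected genes did. Among genes of at least 10 FPKM, the level class of these members, the share was 8.74%, so 0 of 5 is not far from the background. Of the 9 members above 0 in every library, 4 differed by more than 2-fold (*Efnb3*, *Ephb1*, *Ephb3* and *Ephb6*), against 28.2% of all such genes. These 4 members are all below a mean of 1 FPKM, whereas that share is over genes of every level. The share among genes below 1 FPKM alone was not computed, so no excess can be read from 4 of 9. The ratio was 1.09 for *Ephb4*, 1.17 for *Efnb2*, 1.48 for *Epha2*, 1.49 for *Efna1* and 1.61 for *Efnb1*. Of the detected genes, 5.33% had a smaller ratio than *Ephb4* and 16.8% a smaller one than *Efnb2*. For *Epha2*, *Efna1* and *Efnb1* these shares were 56.7%, 57.4% and 65.9%.

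**Figure D4:**
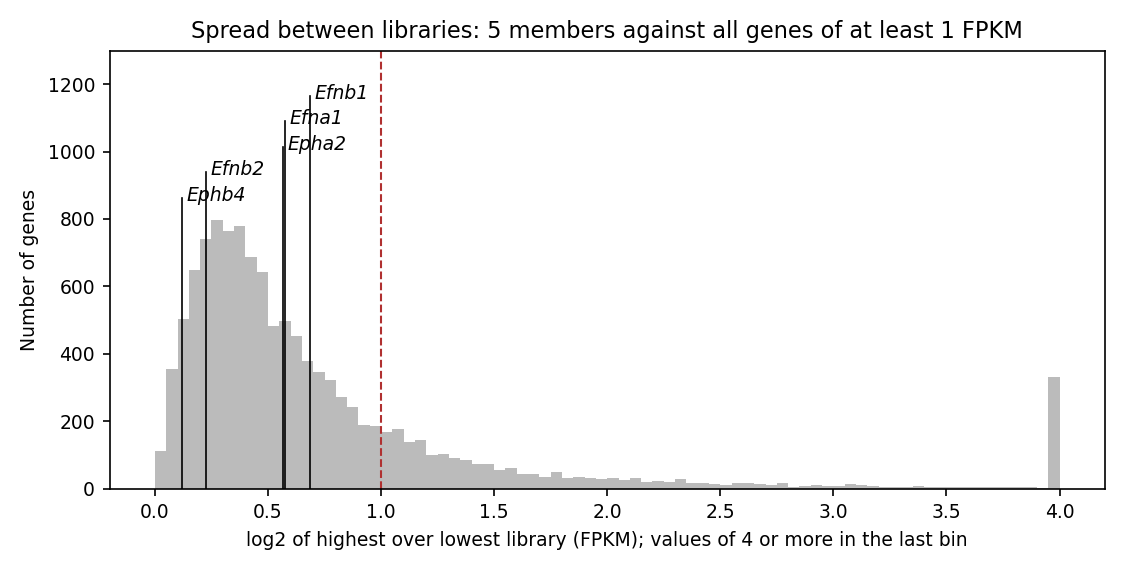
Histogram of log2 of the ratio of the highest to the lowest library over all 11770 detected genes, with the 5 detected members as black lines and 2-fold as a dashed line. Log2 ratios of 4 or more are in the last bin. *Ephb4* and *Efnb2* lie on the narrow side of the distribution, and none of the members passes the dashed line.

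Because ephrin-B2 and EphB4 are used as arterial and venous markers, the other markers of these vessels were set beside them. All 7 arterial genes were detected, as were 48.3% of all genes. The chemokine gene *Cxcl12*, the Notch ligand gene *Dll4* and the connexin gene *Gja4* had means of 102 ± 15.8, 86.6 ± 4.15 and 86.2 ± 27.0 FPKM (SD, n = 3). *Hey1* and *Sox17*, transcription factors of arterial ECs, were at 44.7 ± 15.95 and 35.9 ± 3.70 FPKM. *Gja5* and *Bmx*, which mark large arteries more narrowly, were at 8.42 ± 0.389 and 4.69 ± 0.498 FPKM. *Efnb2* exceeded each of the 7 genes in every library.

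Of the 5 venous genes, 4 were detected. *Vwf*, the von Willebrand factor gene, was at 282 ± 41.7 FPKM and *Selp*, the P-selectin gene, at 17.9 ± 1.15 FPKM (SD, n = 3), and both are also genes of platelets. *Slc6a2*, the noradrenaline transporter gene, had levels of 69.4, 81.7 and 23.2 FPKM, unlike *Ephb4*, which was level across the libraries. *Nr2f2*, a transcription factor of venous identity, was at 2.76 ± 0.372 FPKM and *Ackr1*, a chemokine receptor of venules, at 0.771 ± 0.523 FPKM. How *Efnb2* and *Ephb4* divide among arterial, venous and capillary cells cannot be read from bulk values.

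The remaining ephrin-A and EphA genes were far lower than *Efna1* and *Epha2*. Of 12 such genes 5 were detected, with a median over all 12 of 0.279 FPKM against 0.784 FPKM over the whole table. *Efna1* made up 94.0% ± 3.70 of the summed ephrin-A FPKM and *Epha2* 86.2% ± 0.891 of the summed EphA FPKM (SD, n = 3). *Epha4*, a receptor that binds ligands of both classes, was the next highest, at 9.48, 9.07 and 14.97 FPKM, or 12.0% ± 1.34 of the EphA sum. Like *Epha2* it was highest in S52.

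Among the other ephrin-A ligands, *Efna2* was at 1.16, 1.61 and 7.27 FPKM, *Efna4* at 0.768, 3.91 and 2.78 FPKM and *Efna3* at 0, 0.120 and 2.95 FPKM. All 3 were detected by their mean, *Efna3* through its S52 value alone. In all 3 the highest library was over 2-fold above the lowest, as in 20.1% of the detected genes of every level. *Efna5* was at 0.136 ± 0.0339 FPKM (SD, n = 3). *Efna1*, *Efna3* and *Efna4* lie close to one another on the minus strand of chromosome 3, from 89271733 to 89338028 in all, and *Efna1* was above the other two in every library. *Epha1* was at 0.988, 1.76 and 0.670 FPKM, but its 3′ end overlaps *Zyx* on the opposite strand, a gene at 150, 129 and 39.7 FPKM. Reads from the stretch they share cannot be told apart without strand. *Efna3* and *Efna4* also overlap antisense genes, which have no row in the deposited table. *Epha3*, *Epha5*, *Epha6*, *Epha7* and *Epha8* had means at or below 0.422 FPKM, and *Epha10* was listed at 0 in all 3 libraries. No window of 51 bases, the read length, in the annotated transcripts of these 22 family genes is shared by any pair of them.

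Genes of proteins that act with Eph receptors and ephrins were next counted. Of 32 such genes 27 (84.4%) were detected, against 48.3% of all genes, and their median was 12.5 FPKM, against 0.784 FPKM over all genes. All 12 adaptor and kinase genes were detected, led by *Crk* (62.3 ± 6.86 FPKM), *Nck1* (51.8 ± 4.32), *Grb2* (46.5 ± 4.08) and *Fyn* (38.4 ± 3.90; SD, n = 3 for each). *Crk*, *Nck1* and *Grb2* encode adaptors that bind phosphorylated receptors, and *Fyn* a Src family kinase. *Nck2*, the adaptor that ephrin-B tails recruit, was at 28.4, 25.8 and 14.2 FPKM and *Src* at 4.52, 3.07 and 2.098 FPKM, each just over 2-fold lower in S52 than in S38.

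Of 7 phosphatase and turnover genes 5 were detected, led by *Adam10*, the protease that cleaves ephrins, at 31.7 ± 6.19 FPKM. *Inppl1*, a lipid phosphatase that binds EphA2, was at 13.0 ± 1.06 FPKM, *Acp1* at 9.89 ± 1.01 and *Dab2*, an endocytic adaptor, at 9.77 ± 0.540 FPKM.

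Of 6 genes for partners of the ephrin-B tail 4 were detected. *Sdcbp*, the gene of the PDZ protein syntenin, was at 227 ± 18.7 FPKM (SD, n = 3), the highest of all 44 genes outside the members. *Stat3* was at 61.5 ± 8.51 FPKM, *Rgs3*, a regulator of G protein signalling, at 46.1 ± 2.74 and *Pick1* at 3.05 ± 0.361 FPKM. *Grip1*, another PDZ protein, was at 0.142 ± 0.195 FPKM. Many of these partners serve other receptors too, so their levels do not speak of Eph signalling alone.

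**Figure D5:**
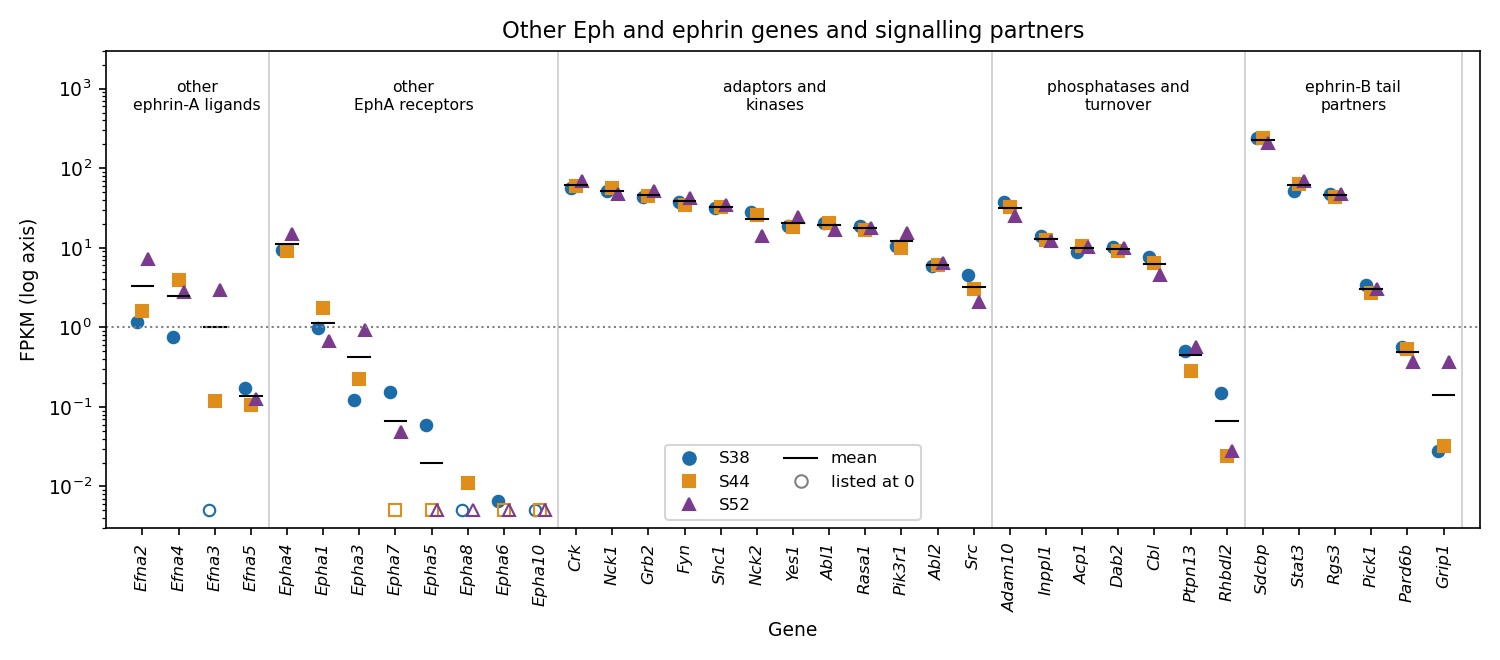
FPKM (log axis) of the 12 other Eph and ephrin-A genes and of the adaptor, kinase, phosphatase, turnover and ephrin-B tail genes in each library, with the mean as a black line and 1 FPKM as a dotted line. Open symbols are values listed at 0. *Sdcbp* is the highest signalling gene, and most other Eph and ephrin-A genes lie near or below the dotted line.

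The sequence around the transcription start was compared between members of the high and the low group. RefSeq windows of 300 bases on GRCm38.p6, most of each before the start, were found for 9 of the 10 members, in 10 windows. The GC content was 72.3% for *Efnb2*, 64.7% for *Ephb4*, 59.7% for *Efnb1*, 54.7% for *Epha2*, and 63.3% and 63.7% for the 2 starts of *Efna1*. In the low group it was 76.3% for *Ephb6*, 68.7% for *Ephb2*, 66.7% for *Ephb3* and 55.7% for *Ephb1*, against a median of 52.7% over 32851 windows. The number of CpG sites was 35 for *Efnb2*, 14 for *Ephb4* and for *Efnb1*, 10 for *Epha2* and 20 for each start of *Efna1*. In the low group it was 34 for *Ephb6*, 24 for *Ephb2*, 23 for *Ephb3* and 14 for *Ephb1*, with a median of 7 over all windows. All 10 member windows exceeded the median GC content, in the low group as in the high one, so GC content did not order the members by level.

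The windows of the *Efnb2* and *Ephb4* pair, of *Epha2* and, for contrast, of *Ephb2*, the lowest member, are printed 5′ to 3′ on the strand of the gene. Capitals mark GGAA and its reverse complement TTCC, the core of the sequence that ETS factors bind, a family with many members in ECs. *Efnb2* is chr8:8661193-8661492 (minus), *Ephb4* chr5:137349859-137350158 (plus), *Epha2* chr4:141300971-141301270 (plus) and *Ephb2* chr4:136835963-136836262 (minus).
Efnb2: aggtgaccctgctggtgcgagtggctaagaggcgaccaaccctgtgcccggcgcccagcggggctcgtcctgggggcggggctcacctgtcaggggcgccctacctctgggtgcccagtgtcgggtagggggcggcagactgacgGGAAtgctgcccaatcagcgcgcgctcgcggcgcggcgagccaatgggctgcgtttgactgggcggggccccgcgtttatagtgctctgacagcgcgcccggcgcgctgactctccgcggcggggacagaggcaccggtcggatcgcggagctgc
Ephb4: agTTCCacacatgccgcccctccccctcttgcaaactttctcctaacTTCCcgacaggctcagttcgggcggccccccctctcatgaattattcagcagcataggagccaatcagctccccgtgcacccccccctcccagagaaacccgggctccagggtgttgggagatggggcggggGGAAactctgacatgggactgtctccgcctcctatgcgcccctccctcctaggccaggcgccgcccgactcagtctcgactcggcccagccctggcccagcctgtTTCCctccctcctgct
Epha2: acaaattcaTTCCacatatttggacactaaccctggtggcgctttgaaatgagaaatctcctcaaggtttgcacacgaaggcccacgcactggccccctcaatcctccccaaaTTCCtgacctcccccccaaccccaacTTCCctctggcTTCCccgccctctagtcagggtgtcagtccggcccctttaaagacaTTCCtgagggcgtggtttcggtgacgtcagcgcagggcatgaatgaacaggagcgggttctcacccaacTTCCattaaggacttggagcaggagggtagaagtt
Ephb2: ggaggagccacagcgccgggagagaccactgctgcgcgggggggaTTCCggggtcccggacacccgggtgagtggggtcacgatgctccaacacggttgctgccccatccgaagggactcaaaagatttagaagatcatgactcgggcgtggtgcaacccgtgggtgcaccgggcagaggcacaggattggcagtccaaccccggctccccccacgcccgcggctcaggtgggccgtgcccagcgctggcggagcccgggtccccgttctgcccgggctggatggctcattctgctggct
GGAA on either strand was found 1 time in *Efnb2*, 4 times in *Ephb4*, 6 times in *Epha2* and 1 time in *Ephb2*. At least 1 match was present in 96.0% of all windows, with a median of 3. TGGGAA, which overlaps GGAA and is part of the sequence bound by the Notch effector RBPJ, was found 2 times in *Efnb1* and in no other member window, against 25.6% of all windows. CACCC, a core of Kruppel-like factor sites, was present in all member windows but that of *Ephb6*, against 57.5% of all. TGANTCA, the AP-1 motif, and GATAA, the GATA motif, were in none of them, against 7.81% and 25.4% of all windows. These are matches of letters in short windows, and binding was not measured. The shares are of all windows and were not matched for GC content, which exceeded the median in every member window.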

How the data were processed

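Poly-A selected, unstranded libraries of sorted adult lung ECs were sequenced by the authors as 51 bp read pairs. What the authors deposited is 1 FPKM value for each gene symbol and library, on mm10, and it was used unscaled (0 sample columns were left out). The submitters' processing notes name Trimmomatic 0.36, TopHat2 2.1.0 and Cufflinks 2.2.1, without saying what each tool did, whereas the paper's methods describe STAR and HTSeq counts. The gene annotation is not given in the sources used here. FPKM is not a count, so no count model was fitted. Libraries were grouped by their labels.

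Means, SDs, ratios and ranks were computed on FPKM, and differences between genes on log2(FPKM + 1), with Python 3.11.15, pandas 2.3.3 and scipy 1.17.1. Detected means a mean of at least 1 FPKM. Depth was estimated from 7077 genes with 1 basic GENCODE M21 transcript of 800 to 4000 bp, as the step that makes low values (443, 569 and 251 in S38, S44 and S52) whole fragments. Of these, 76.7%, 75.2% and 73.7% lay within 0.15 of a whole number, at a step searched to fit them. Fragment numbers of members rest on this estimate, and intervals and limits cover counting error only. The depth estimate and the 2-fold rule were tested on simulated data. Since nothing says that the libraries came from separate mice, SDs and the sign-flip p measure the spread between these libraries, which may be technical.

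Members and lists were chosen with earlier results of these data known. Named genes are the members, the 4 highest genes of each pathway list, pathway genes over 2-fold apart, all arterial and venous markers, defining markers of other cells, and the 3 list genes nearest to *Efnb2* and *Ephb4*. *Emcn*, *Kdr*, *Erg*, *Flt4*, *Lyve1*, *Grip1* and the remaining Eph and ephrin genes were named after their values were seen. One pathway list, counted in the pathway totals, is not reported here by gene. A planned comparison of protein sequences was not made here. Alternatives were 3 library scalings, leaving out each library, other thresholds and filters, and another pseudocount.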

Additional observations from a re-analysis of the deposited data

How the results depend on the processing

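The count of detected members was 5 with each of the 3 scalings, thresholds of 3 and 10 FPKM and the threshold required in every library, and it was 5 to 6 with a library left out. A threshold of 0.1 FPKM raised it to 8, by construction. The pathway lists together hold 44 genes, of which 32 were detected. This count of detected pathway genes was 29 to 31 under 5 of the alternatives and 32 under 2. It became 38, 28 and 18 at thresholds of 0.1, 3 and 10 FPKM. The count of members over 2-fold apart was 0 under each alternative that kept a filter. Without a filter it was 4 of 9, where the low members *Efnb3*, *Ephb1*, *Ephb3* and *Ephb6* enter. The share over all genes above 0 in every library, of any level, was then 28.2%. Separated neighbours numbered 5 under the scalings and the other pseudocount and 5 to 7 with a library left out, the highest without S52, where *Efnb1* and *Epha2*, and *Ephb1* and *Ephb6*, became separated. No separated pair turned its order. Rescaling to a sum of 1000000 multiplied S38 by 0.867, S44 by 0.624 and S52 by 0.705 and thereby lowered the *Efnb2* mean to 105 FPKM and the *Ephb4* mean to 42.5 FPKM. It also made S38 the highest library for both. No paired analysis was possible because the libraries analysed here form 1 group. The table gives no counts, so depth behind each value is an estimate. The counting intervals of *Efnb3*, and with the shortest transcript those of *Ephb2*, overlap between libraries, which is not a test of a difference.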

Other observations

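Among 124 genes of all lists used here, those nearest to *Efnb2* by the largest difference in log2(FPKM + 1) over the 3 libraries were *Flt1* (0.18), *Cxcl12* (0.75) and *Sdcbp* (0.75). *Flt1*, the VEGF receptor 1 gene, had levels of 146, 139.6 and 152 FPKM in the 3 libraries. The genes nearest to *Ephb4* were *Nck1* (0.26), *Stat3* (0.28) and *Crk* (0.29). Likeness over 3 libraries is a description of level only.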
